A study of Drosophila melanogaster with 3 samples.

Results

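The proneural genes of Drosophila and their partners, ac, sc, l(1)sc, ase, ato, cato, amos, da and emc, were examined for peaks of Senseless. They are 9 of the 13945 protein-coding genes on the chromosome arms used, listed by name for their role. Peaks were assigned to a gene when the summit lay in the gene body or within 5 kb of it, here called the territory. For ac, sc, l(1)sc and ase, the whole span of their complex on X was examined as well. Chromatin bound by the tagged protein was recovered with an antibody to GFP and sequenced (ChIP-seq). The material was whole embryos of both sexes, 4 to 14 hours old, from 1 transgenic line that carries sens with GFP at its C-terminus. All 3 samples are biological replicates of this 1 group, with no second condition, so no value here has a test between groups. Whole embryos mix every cell type, so a peak present in few cells cannot be told apart from a weak one.

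Proneural proteins are basic helix-loop-helix (bHLH) transcription factors that make groups of ectodermal cells competent to become neural precursors. Each acts as a dimer with Daughterless, the product of da, on E-box sequences. Extramacrochaetae, the product of emc, has a helix-loop-helix but no basic region, and it holds these proteins in dimers that do not bind DNA. Senseless, a zinc finger protein, is switched on in the sensory organ precursor by proneural proteins and in turn acts on their genes, which in the wing disc include ac and sc.

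Of the 9 genes, the general partner da and the inhibitor emc carried reproducible peaks, and none of the 7 tissue-specific proneural and precursor genes did. A reproducible peak is one of the 3811 in the authors' list thresholded by irreproducible discovery rate (IDR), which compares ranks between replicates. Over all protein-coding genes, 42.4% had a reproducible summit in their territory. The 7 genes without one are all at most 3000 bp long, and among the 8625 genes up to that length the share was 36.0%. Of these 7, ac, sc, l(1)sc and ase are neighbours in the same complex, so they are not independent cases. With so few genes, the difference from the share over all genes was not tested. In the list from the pooled replicates, which holds 28357 peaks, 8 of the 9 genes had a summit and ac had none, where 87.3% of all protein-coding genes had one. The weak pooled summits of sc, l(1)sc, ase, ato, cato and amos thus lay below the reproducible list. The 3811 reproducible peaks are the strongest of the pooled list. A gene without one can therefore still have a pooled summit that lies in peaks of all 3 replicates, as ase and cato do. Signal values are the authors' scores on a scale that is not stated, so peaks are given by their rank in each list, where 1 is the strongest. The depth of the libraries is unknown, and no control library is listed for these peak lists; lists on the older assembly dm3, made with a control among their inputs, were not used here.

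The genes separated into 2 levels by their strongest peak in each replicate. The strongest peak in the emc territory ranked 1595, 773 and 1263 in replicates 1, 2 and 3, among 30000, 30000 and 27681 peaks. That in the da territory ranked 982, 1773 and 1994. The ranks of da and emc overlap, and all 6 lie above every rank of the other genes. The precursor gene ase came next, with 9609, 7668 and 3548. Its ranks overlap those of l(1)sc, at 9734, 11914 and 6959, and of cato, at 13227, 12723 and 8012. The strongest peak of sc ranked 13446, 11518 and 17631, and that of ato 16326, 14040 and 12798. Then came ac, with 17297, 18572 and 12053, and amos, with 23958, 29338 and 11976. These 2 genes were the lowest in replicates 1 and 2, while in replicate 3 both ranked above ato and sc. From ase to amos, neighbouring genes in this order overlapped in their replicate ranks. These ranks need not belong to 1 site. The strongest peaks of the 3 replicates lay together for ase and emc, in 2 of them for da, cato and amos, and at 3 different places for ac, sc, l(1)sc and ato.

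**Figure D1:**
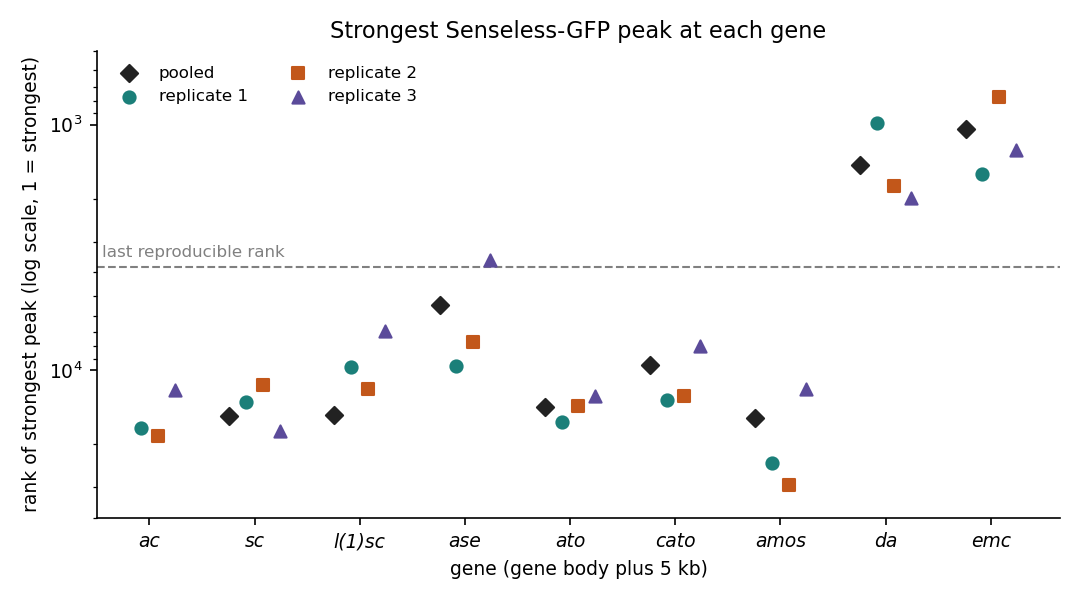
Rank of the strongest peak in the territory of each of the 9 genes, on an inverted log scale, in the pooled list and in replicates 1, 2 and 3; the dashed line is rank 3811, the end of the reproducible list. Points of da and emc lie above the line in all lists, the other genes lie below it except ase in replicate 3, and ac has no pooled peak.

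Among each replicate's own 3811 strongest peaks, da and emc had a summit in all 3 replicates. The gene ase had one in replicate 3 only. Over all protein-coding genes, the share with such a summit was 42.6%, 42.6% and 42.2% in replicates 1, 2 and 3. By the strongest pooled peak in the territory, 16.1% of protein-coding genes stood above emc and 21.4% above da. For ase, 51.8% of genes had a stronger one, and for cato 65.7%. For ato, l(1)sc, sc and amos it was between 73.8% and 75.9%.

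The da locus is described first, since da was the only one of the 9 genes with a reproducible summit within 500 bp of an own transcript start, as 16.4% of all protein-coding genes had. The gene lies on 2L at 10388105 to 10393228 (dm6, plus strand). This summit was intergenic and 91 bp upstream of the da start. It ranked 2046 in the pooled list with a signal value of 209.9. In replicates 1, 2 and 3 it lay in peaks of rank 2718, 1773 and 2555, all within the 3811 strongest. A stronger summit at 10386481, with pooled rank 1467 and a signal value of 253.9, lay 1624 bp upstream of da. It ranked 982, 1781 and 1994 in the replicates. It was 181 bp from the start of mRpS7, which encodes a mitochondrial ribosomal protein, between that gene and Cdk1, a kinase of the cell cycle. The territory of da also holds starts of other genes, 5 in all, so this summit cannot be assigned to da alone. The da territory held 10 pooled summits, against a median of 3 over all protein-coding genes. It is longer than the territories of most genes, and most of its summits were nearest to starts of mRpS7, Mdh1, Cnot4 or an antisense RNA gene. A weaker pooled summit, at 10388225 and rank 14626, stood 120 bp inside da, in its 5′ UTR.

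The emc locus carried its strongest peaks away from the emc start. The gene lies on 3L at 749400 to 753492 (dm6, plus strand), inside an intron of the gene hng3. The strongest summit, at 745769, was 3631 bp upstream of emc with pooled rank 1043 and a signal value of 306.9. It ranked 1595, 773 and 1263 in the replicates. The nearest transcript start, at 1975 bp, was that of an initiator methionine tRNA gene. The second reproducible summit, at 754744, had pooled rank 3246 and a signal value of 155.8, and it stood 5344 bp downstream of the emc start and 745 bp from that of hng3. Its ranks were 2142, 3630 and 4357, so in replicate 3 it lay outside the 3811 strongest. Both summits are in hng3 introns. The emc promoter itself had a pooled summit 51 bp inside the gene, at 749451, in the 5′ UTR. Its signal value was 135.1, against 139.8 for the last reproducible peak, and its pooled rank of 4004 fell just outside the list. In the replicates it ranked 5431, 2940 and 7458, and in replicate 2 alone it was among the 3811 strongest. With 11 pooled summits, emc had the most of the 9 territories.

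**Figure D2:**
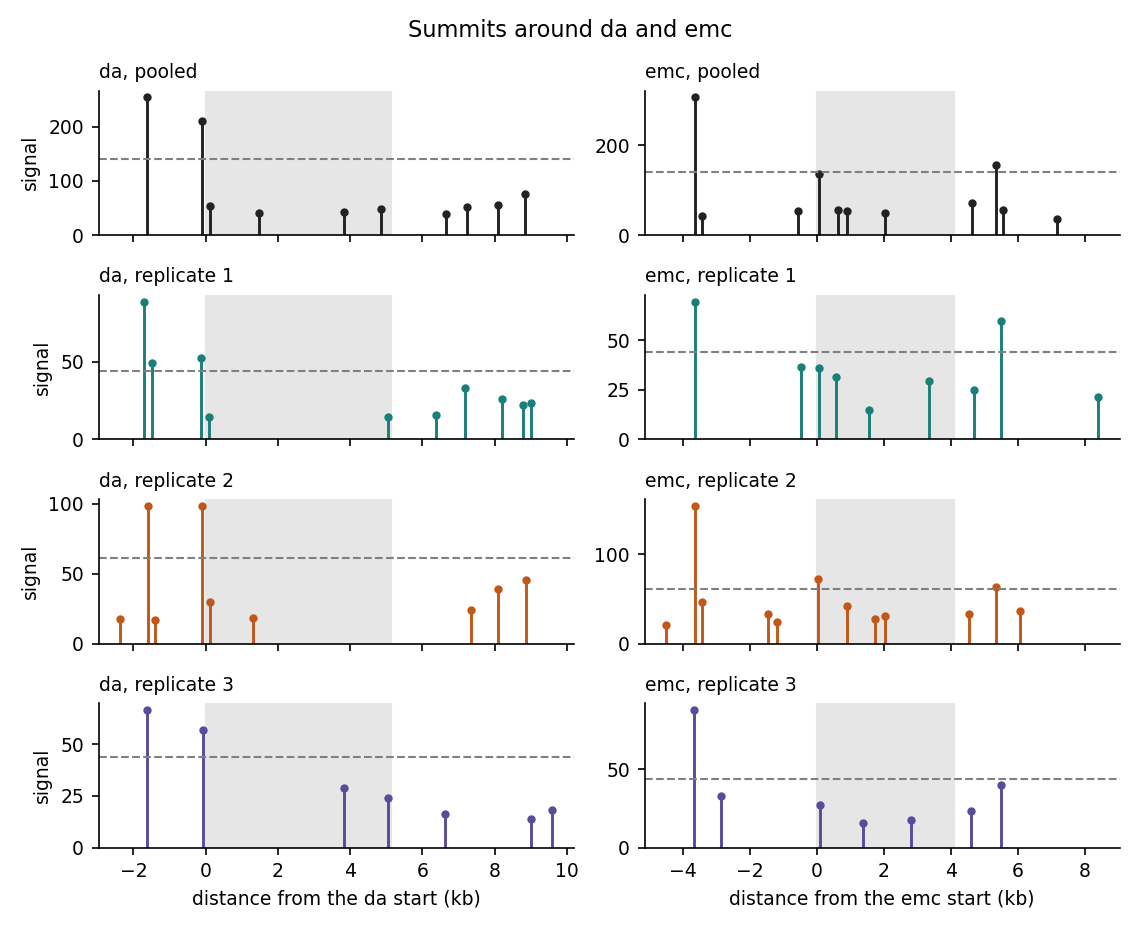
Signal value of each summit in the pooled list and in each replicate against its distance from the da start (left) and the emc start (right), in kb; grey bands are the gene bodies and dashed lines the lowest signal among the 3811 strongest peaks of each list. The da promoter summit and the one 1624 bp upstream stand above the line in every panel, as does the one 3631 bp upstream of emc.

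The sequences within 50 bp of 3 of the 4 reproducible summits are shown because these summits passed the authors' threshold. They are read from the dm6 assembly on the plus strand, and capitals mark matches, on either strand, to AAATCA, the core of the Senseless site.
da upstream, chr2L:10386431-10386531: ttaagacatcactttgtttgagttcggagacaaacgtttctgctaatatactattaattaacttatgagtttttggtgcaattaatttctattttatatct
emc upstream, chr3L:745719-745819: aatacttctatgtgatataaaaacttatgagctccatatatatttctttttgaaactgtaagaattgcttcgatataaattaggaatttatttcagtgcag
emc downstream, chr3L:754694-754794: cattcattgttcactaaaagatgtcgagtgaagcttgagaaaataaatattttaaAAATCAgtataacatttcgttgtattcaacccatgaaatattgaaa

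Of all 4 windows, AAATCA was in 1, downstream of emc, and any E-box, CANNTG, in 1. Over all 3811 reproducible summits, 14.2% of such windows hold AAATCA and 35.3% an E-box. The proneural E-box, searched as GCAGCTG or GCAGGTG on both strands and always overlapping a general E-box, was in none of the 4 and in 1.71% of all reproducible windows.

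The achaete-scute complex holds ac, sc, l(1)sc and ase, which were all on the plus strand. With 5 kb on each side it spans 103.1 kb of X, from 365031 to 468176 (dm6). The genes ac and sc give the fly its external sense organs, l(1)sc acts in the early central nervous system, and ase in neural precursors. Across this span there was no reproducible summit. At the density of reproducible summits over the whole of X, 28.97 per Mb, a length of this size would hold 2.99. Other windows of the same length tiled along X lacked a reproducible summit in 20.9% of cases (47 of 225), and over all 5 large arms in 26.8%. These windows include runs towards an end of each arm with few or no pooled summits, most of which lack a reproducible summit too.

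The complex was not poor in weak peaks. It held 21 pooled summits, or 203.6 per Mb, against 198.5 per Mb over X, and 52.4% of X windows held fewer. Replicates 1, 2 and 3 had 24, 27 and 18 summits there, with medians of 20, 21 and 19 for X windows. Of the 684 windows on all large arms with at least 21 pooled summits, 3.22% lacked a reproducible one. On X it was 1 of 107 windows (0.935%). Most of these windows hold more pooled summits than the complex, with a median of 31. Among the 163 windows with 19 to 23 pooled summits, a range chosen after seeing the data, 7.98% lacked a reproducible one, and on X 1 of 35 (2.86%). Reproducible peaks are part of the pooled list, so each pooled count includes the window's own reproducible summits. Windows chosen by pooled count are thus not matched to the complex in weak peaks, and these shares were not tested.

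**Figure D3:**
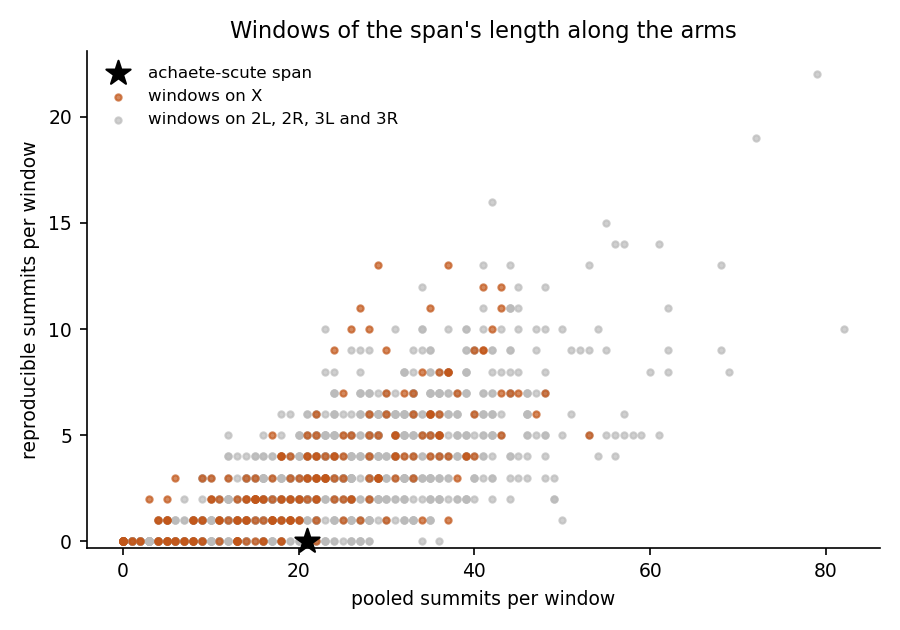
Reproducible against pooled summits in windows of the length of the achaete-scute span, tiled along X (orange) and along 2L, 2R, 3L and 3R (grey), with the span itself as a black star at 21 pooled and 0 reproducible summits. Windows with at least as many pooled summits as the span held, in all but 22 of 684 cases, at least 1 reproducible summit. The pooled count of a window includes its reproducible summits.

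The nearest reproducible summits lay far outside the genes. On the side of ac, the first was at 263756, 106275 bp before ac, with rank 3203 and 239 bp from the start of CG13377. On the side of ase, it was at 494003, 30827 bp after ase, with rank 178 and 508 bp from the start of CG17896. The stretch of 230.2 kb between them is one of 4 of at least this length among the 681 gaps between neighbouring reproducible summits on X (0.587%), where the median gap was 12.6 kb. Over the large arms together, 41 of 3795 gaps (1.08%) were as long. The stretch was picked because it holds the span, which had no reproducible summit, so it had to be longer than the span. A long gap also covers more of X than a short one, so its share of X exceeds its share of the gap count. This stretch held 54 pooled summits. Except for the one summit in the l(1)sc coding exon, all pooled summits of the complex lay in introns of CG32816, a gene on the minus strand that the annotation draws across the 4 proneural genes.

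By the nearest of the 4 starts, 9 pooled summits of the complex belonged to l(1)sc, 8 to ase, 3 to sc and 1 to ac. The starts are unevenly spaced, and longer stretches of the span are nearest to l(1)sc and ase than to ac and sc. Some of these summits lay far from the start, up to 16155 bp for l(1)sc and 24746 bp for ase. The counts thus do not show a preference among the 4 genes. The strongest pooled summit, at 464067, stood 3320 bp downstream of the ase start with pooled rank 5450, a signal value of 109.5 and a −log10 q-value of 2.3. It was the only one of the 21 at a q-value of 0.01 or below. In replicates 1, 2 and 3 it lay in peaks of rank 9609, 7668 and 3548, so it was found in all 3, and among the 3811 strongest of replicate 3 alone. A second summit 3523 bp downstream, of rank 8823, lay in the same replicate peaks. The next strongest site, at 382833, was 12802 bp downstream of ac and far from any gene of the complex, with pooled rank 7596. It was also found in all 3 replicates, at ranks 8857, 7423 and 14915. The site at 444176, 16571 bp upstream of ase, had pooled rank 8225. It was found in replicates 2 and 3, at ranks 9910 and 5856, and not in replicate 1. The fourth summit present in all 3 replicates, at 451227 and 9520 bp upstream of ase, had pooled rank 16516.

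**Figure D4:**
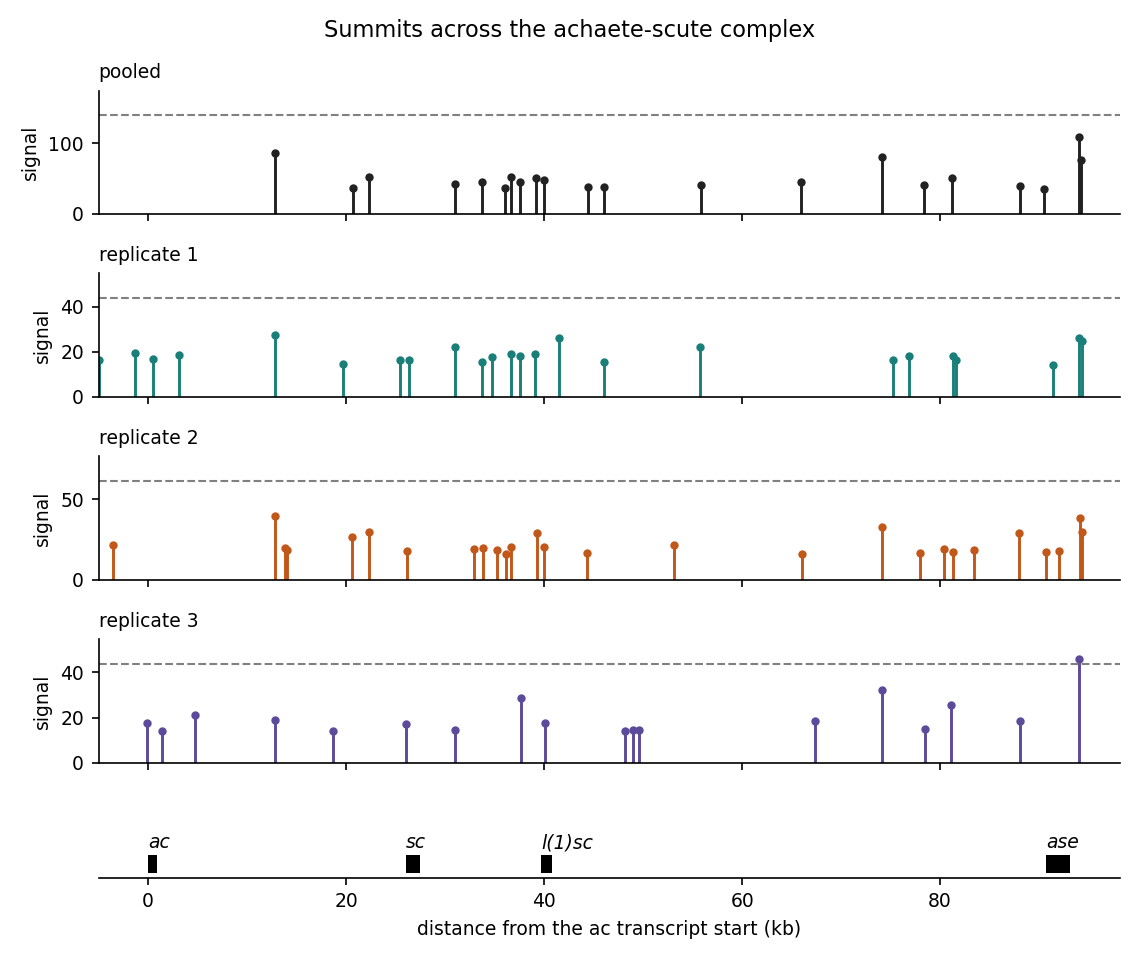
Signal value of every summit in the pooled list and in each replicate across the achaete-scute span, by distance from the ac start in kb, with the 4 genes as black boxes; dashed lines are the lowest signal among the 3811 strongest peaks of each list. No pooled summit reaches the line, and in the replicates a single summit, downstream of ase in replicate 3, does.

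At the 4 genes themselves the peaks were weak. Of the 12 pooled summits in their territories, 8 lay in peaks of at least 2 replicates, namely 1 of 2 at sc, 4 of 6 at l(1)sc and 3 of 4 at ase. This is close to the share over all 24546 pooled peaks below the reproducible list, where 9558 lay in peaks of 2 replicates and 6580 in peaks of 3. Those at ase include 2 summits that lay in the same replicate peaks. The pooled summits nearest to l(1)sc stood 489 bp upstream and 321 bp inside the gene, with ranks 16535 and 17782. Each was found in 2 replicates. The ase start had a pooled summit 241 bp upstream, of rank 27899, found in replicate 2 only. Of the 2 pooled summits of sc, the stronger lay 3727 bp upstream with rank 15353 and was found in replicate 2 only, while the other, 4954 bp downstream with rank 21967, was found in replicates 1 and 3. Replicates 1, 2 and 3 each had a peak within 500 bp of the sc start, at 360 bp inside, 110 bp inside and 29 bp upstream, with ranks 23988, 25022 and 17631, and the pooled list had none. At ac, the replicates had 4, 1 and 3 peaks, and none had its summit inside a peak of another replicate.

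Coincidence between replicates was counted for all peaks of the complex. The summit lay inside a peak of at least 1 other replicate for 9 of 24, 10 of 27 and 9 of 18 peaks in replicates 1, 2 and 3, which is 37.5%, 37.0% and 50%. Among all peaks of these replicates below the 3811 strongest, it was 54.8%, 58.7% and 53.4%. The sets are not quite alike, since the complex's peaks in replicate 3 include 1 of rank 3548, within the 3811 strongest. The complex's peaks in replicates 1, 2 and 3 had median ranks of 19917.5, 21413 and 17140, against 16906, 16906 and 15746.5 for the weak peaks in general. They thus ranked lower. Of the 21 pooled summits, 4 lay in peaks of all 3 replicates (19.0%), against 26.8% of the 24546 pooled peaks below the reproducible list. Split at rank 10000, it was 3 of 4 against 72.8%, and 1 of 17 against 11.3%. These differences were not tested. The 3 include 2 summits downstream of ase that lay in the same replicate peaks, so that site is counted more than once.

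Of the remaining proneural genes, all of the atonal family, ato and cato carried weak pooled peaks at their starts and amos did not. The gene ato, which founds chordotonal organs and photoreceptors, lies on 3R at 8278052 to 8279274. Its strongest pooled summit was 21 bp upstream of its start, with rank 14120, a signal value of 55.4 and a −log10 q-value of 0.374. It was found in replicates 2 and 3, at ranks 14040 and 15653, and not in replicate 1. The gene had pooled summits also 5621 bp downstream (rank 15150) and 2678 bp upstream (rank 17145), each found in replicates 1 and 3. The gene cato, which acts in sensory precursors of the chordotonal lineage after ato, lies on 2R at 16277685 to 16278396 (minus strand). Its strongest summit, 124 bp upstream of its start, had pooled rank 9560 and was found in all 3 replicates, at ranks 16549, 12723 and 8012. Of the 7 genes without a reproducible summit, cato alone had a pooled summit at its own start that all 3 replicates shared.

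The gene amos, which acts in olfactory and some embryonic multidendritic precursors, lies on 2L at 18596136 to 18596921 (minus strand). Its 1 pooled summit stood 2890 bp downstream of the start, in a coding exon of CG15160, with rank 15624. It was found in replicates 1 and 3. No list had a summit within 500 bp of the amos start. With a territory of 10 kb, amos gained a reproducible summit of rank 92, at 18605125, that stands 103 bp from the start of CG10413 and 8204 bp from that of amos. Over the 9 genes, 6 had a pooled summit within 500 bp of an own start, as had 49.6% of all protein-coding genes.

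The sequences of weak peaks in the complex and at ato are shown for comparison, the first 3 as the strongest separate sites of the complex and the last 2 as windows that hold a proneural E-box. Capitals mark AAATCA, E-boxes and proneural E-boxes on either strand.
ase downstream, chrX:464017-464117: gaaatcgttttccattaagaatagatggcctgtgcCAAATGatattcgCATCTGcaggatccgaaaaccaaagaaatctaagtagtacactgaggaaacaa
ac downstream, chrX:382783-382883: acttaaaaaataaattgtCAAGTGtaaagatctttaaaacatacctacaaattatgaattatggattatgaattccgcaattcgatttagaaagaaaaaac
ase upstream, chrX:444126-444226: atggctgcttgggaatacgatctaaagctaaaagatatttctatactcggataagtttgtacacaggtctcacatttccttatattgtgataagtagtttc
l(1)sc coding exon, chrX:409992-410092: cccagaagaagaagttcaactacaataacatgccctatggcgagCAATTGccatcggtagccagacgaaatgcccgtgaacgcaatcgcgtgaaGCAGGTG
ato downstream, chr3R:8283623-8283723: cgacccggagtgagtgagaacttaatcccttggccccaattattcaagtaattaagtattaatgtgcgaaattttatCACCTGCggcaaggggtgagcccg

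The window downstream of ase holds a pair of E-boxes, that downstream of ac holds 1, and that upstream of ase none. Of the 21 pooled windows of the complex, AAATCA was in 1 (4.76%), a proneural E-box in 2 (9.52%) and any E-box in 10 (47.6%). Over all 28357 pooled summits the shares were 12.5%, 3.11% and 38.6%. In the 39 pooled windows of the 9 territories, AAATCA was in 2 (5.13%), a proneural E-box in 3 (7.69%) and any E-box in 17 (43.6%). The 2 with AAATCA were the reproducible one downstream of emc and the one 3012 bp upstream of l(1)sc. The 3 with a proneural E-box were those in the coding exons of l(1)sc and da and the one downstream of ato. The windows of the complex had a mean of 40.1% G and C, and all pooled windows 39.2%. Such matches are letters in a window, not sites.

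Genes that act before, with or after the proneural proteins were counted in the same way, from lists chosen for their known roles. Among 12 prepattern and upstream regulators, 5 had a reproducible summit (41.7%), against 42.4% of all protein-coding genes. The strongest were ush, a cofactor of the GATA factor Pannier, with rank 1, although that summit lay nearest to cbt, and chn, an activator of proneural genes, with rank 130 at 152 bp from its start. The stripe gene sr followed with rank 605, and the Iroquois gene caup with rank 2252. Its neighbours ara and mirr, and pnr, B-H1, B-H2, Sox15 and eyg, had none.

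Among 12 targets and cofactors of proneural proteins, 7 had a reproducible summit (58.3%). The strongest were at insc, a polarity gene of dividing neuroblasts (rank 572), neur, a ubiquitin ligase of Notch signalling (rank 1035), sens itself (rank 1093) and pros, a fate determinant (rank 1151). The Notch ligand gene Delta and rho, sca, nvy and tap had none. Among 14 other bHLH genes, which include tap again, 8 had one (57.1%). Of their strongest peaks, that of crp (rank 361) lay nearest to crp itself, and those of Fer1 (rank 821) and nau (rank 1149) nearest to CG2656 and CG10300. Among 11 repressors of the bHLH-Orange family, 7 had one (63.6%). Here E(spl)m8-HLH and E(spl)m7-HLH share the summit of rank 145, which lay nearest to gro, and E(spl)mgamma-HLH and E(spl)mdelta-HLH share that of rank 448. The summit of E(spl)m3-HLH ranked 412, and the genes dpn, Hey, hry (hairy) and E(spl)m5-HLH had none. Neighbours that share a summit are not independent, list genes differ in length, and the shares were not tested.

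**Figure D5:**
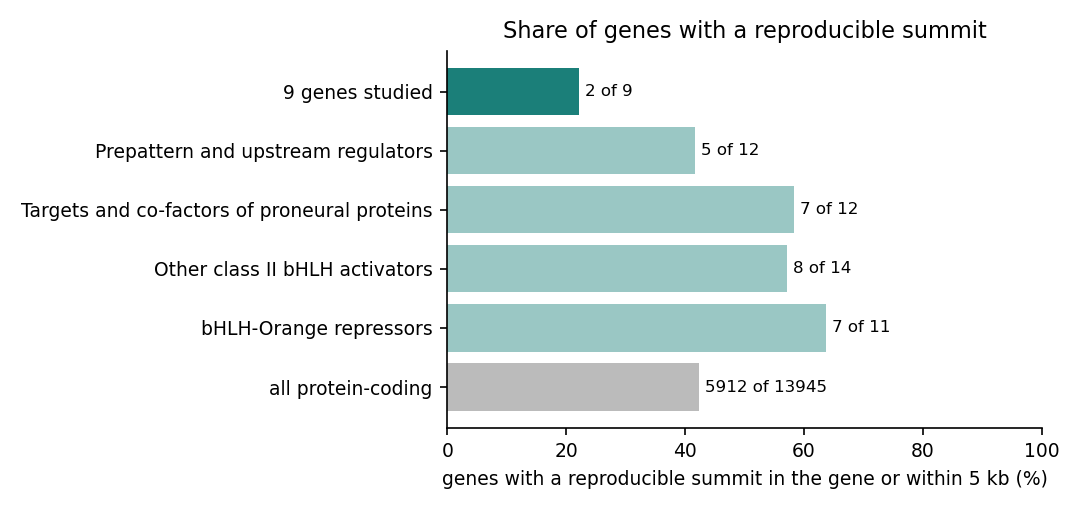
Percent of genes with a reproducible summit in the gene body or within 5 kb, for the 9 genes, the 4 related lists and all protein-coding genes, with counts beside the bars. The bar of the 9 genes, 2 of 9, is the shortest, and that of all protein-coding genes stands at 42.4%.

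The strongest reproducible peaks of da and emc were set beside those of other genes by rank in the 3 replicates. The peak most like that of da was a single summit on 2R at 23548081, in the territories of AIMP3 and Dcp-1 among others, with ranks 1090, 1725 and 2057 in replicates 1, 2 and 3 and a mean absolute difference of 75.7 ranks. The peak most like that of emc was a single summit in the territories of goe and if, with ranks 1660, 840 and 1294 and a mean difference of 54.3 ranks. Each likeness rests on 3 replicates of 1 group.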

How the data were processed

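Senseless-GFP peaks were taken from 5 deposited lists on dm6, namely 1 per replicate, 1 from the pooled replicates and the optimal IDR list; the dm3 lists, which the deposited text notes derive with a control, were not used here, since no dm3 annotation was at hand. Per the deposited text notes, the replicate and pooled lists derive from alignments with no control listed, and the IDR list from these 4 lists. For the aligner and the peak caller, the sources used here give no name. Each deposited peak carries its summit offset in bp, a −log10 q-value, and a signal score of unstated scale. All 3811 IDR peaks are the strongest of the pooled list. Library depth is unknown.

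Positions are 1-based. Genes and transcript starts, without transposable elements, came from Ensembl release 115, and sequence from the RefSeq FASTA of the same assembly; start and end of all 9 genes are the same in RefSeq. Older symbols of 4 list genes (BarH1, BarH2, Dl, h) were matched through RefSeq synonyms. Ranks order peaks by signal. A pooled summit was found in a replicate where it lay inside one of its peaks; summits that share an interval can thus share a replicate peak. Windows with 10% or more unknown bases, or that overlap the complex, were left out. Named genes are the 9 genes with every reproducible summit and up to 3 pooled ones, up to 4 with the strongest peaks per list, and the 2 genes most alike. Other names were added after their values were seen. The members and lists were chosen with earlier results of these data known. One nearest gene and one sequence are not reported here. The counting code was tested on simulated data. The analysis used Python 3.11.15, pandas 2.3.3 and numpy 2.4.6. Alternatives varied territory, list, overlap, window and replicates.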

Additional observations from a re-analysis of the deposited data

How the results depend on the processing

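The number of genes with a reproducible summit was 2. It was 1, da, with territories of 1 kb, 0 within the gene bodies alone, 3 with 10 kb, 3 with pooled peaks at a q-value of 0.01 or below, 2, 2 and 3 in replicates 1, 2 and 3 alone, and 2 without any single replicate. The summits in these territories numbered 4, against 1 with 1 kb, 8 with 10 kb, 0 within gene bodies and 2 in the stronger 50% of the list, and 3 to 4 when a replicate was left out. The complex held 0 reproducible summits in the authors' list, with 20 kb flanks too, and 1 among the strongest peaks of replicate 3. Its 21 pooled summits became 1 at a q-value of 0.01 or below. The 8 genes with a pooled summit became 3 within gene bodies and 3 at that q-value. The count of genes with a reproducible summit nearest to their own start was 1, and 2 with starts of protein-coding genes only, which adds emc. Of the 4 reproducible summits, 3 were among the strongest peaks of all 3 replicates, and 4 were in their full lists. With 100 bp on each side of these 4 summits, AAATCA was in 2 and an E-box in 2. In the 39 pooled windows, which are more numerous, AAATCA was in 2, a proneural E-box in 3 and any E-box in 17. The causes of these differences were not tested beyond what each setting changes by construction. No paired analysis was possible because the series has 1 group. Unknown depth limits what a weak or absent peak at a proneural gene can show.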

Other observations

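The other gaps on X that were at least as long as the stretch of 230.2 kb around the achaete-scute complex measured 245.7, 292.7 and 1202 kb and began at 14.2, 20.8 and 21.6 Mb. They held 10, 25 and 32 pooled summits and 15, 18 and 38 protein-coding genes. The stretch around the complex held 54 pooled summits and 23 protein-coding genes, more pooled summits than any of these 3. These gaps were not matched to it in length or gene content, and that of 1202 kb held few pooled summits for its length.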
